A study of Mus musculus with 6 samples.

Results

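The genes described here encode the subunits of the RNA polymerases that transcribe the nuclear genome, the DNA polymerases of replication and repair, and the polymerases of mitochondria, all of which are encoded in the nucleus. They were taken by symbol, as every gene of the deposited tables whose mouse symbol follows the naming of polymerase subunits, from Polr1a to Polr3k, Pola1 to Polq, and Polrmt. One pseudogene, Polr2k-ps, was left out. This gave 49 protein-coding genes of 53379 in each table, of which 5 belong to RNA polymerase I, 13 to RNA polymerase II, 10 to RNA polymerase III, 20 to DNA polymerases and 1 is the mitochondrial RNA polymerase. By role, 11 encode large catalytic subunits, 30 small or accessory subunits and 8 DNA polymerases that act as single chains. The name nuclear holds for where these genes lie and not for where every product works, since Polg, Polg2 and Polrmt act in mitochondria. Subunits named by older symbols, such as Twistnb, fall outside the symbol rule and are given at the end.

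The series compares RNA bound by an antibody against hnRNPK with total RNA in Min6 cells, a mouse insulinoma line with properties of pancreatic beta cells. hnRNPK shuttles between nucleus and cytoplasm and binds C-rich RNA through its KH domains. Both groups came from cells at passage 31 kept for 30 h in 500 µM palmitic acid and 25 mM glucose, a state the labels name glucolipotoxicity, and there is no untreated group here. One group, hnRNPK IP, holds 3 libraries of RNA eluted from antibody-coated beads after incubation with lysate holding 200 µg of protein, and the other, total RNA, holds 3 libraries from a 10% input of the lysate. No label names separate cultures for the replicates, so the spread between libraries may be technical. RNA recovered with a non-specific antibody was not analysed here, so binding to hnRNPK and binding to beads cannot be told apart.

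RNA polymerase I transcribes ribosomal RNA genes, RNA polymerase II transcribes mRNA genes, and RNA polymerase III transcribes genes for transfer RNA and other short RNAs. In each enzyme the largest and second largest subunits form the active centre, and a set of small subunits surrounds them, some of them shared between enzymes. The largest subunit of RNA polymerase II carries a long C-terminal domain made of repeated heptapeptides, which is phosphorylated during transcription and recruits RNA processing factors. Replicative DNA polymerases likewise pair a large catalytic chain with smaller accessory subunits, while several repair and damage-bypass polymerases are single proteins.

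Coding sequence is shown for a few of these mRNAs because hnRNPK is known to prefer C-rich RNA and because Polr2a was by far the highest of the 49 in the IP. The tetramer TCCC (UCCC in the RNA) was counted on the sense strand of 1 annotated mRNA per gene, from GENCODE release M21 on GRCm38. Below are stretches of 30 nt of coding sequence with the most TCCC and then the most C, written 5′ to 3′ as cDNA with each TCCC in capitals and named by the coding nt at which they start. They are 3 stretches of Polr2a and 1 each of Polr2b, the second largest subunit of the same enzyme, of the small subunit genes Polr2g and Polr2l, and of the repair polymerase gene Polm.
Polr2a, nt 5392 of the coding sequence: TCCCccacctcaccaagctacTCCCcctcc
Polr2a, nt 5776 of the coding sequence: accagTCCCacctactcacccacctcTCCC
Polr2a, nt 4841 of the coding sequence: cctacTCCCctacttcaccttcctacTCCC
Polr2b, nt 2894 of the coding sequence: tcatcataaacccccacgccaTCCCcTCCC
Polr2g, nt 15 of the coding sequence: tTCCCtggagcacgagatcctcctgcaccc
Polr2l, nt 1 of the coding sequence: atgatcaTCCCggtgcgctgcttcacctgc
Polm, nt 266 of the coding sequence: ctcTCCCcacaggctgcccacagccagctc

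All 3 Polr2a stretches lie in the last 1479 nt of its coding sequence of 5913 nt, at the end that encodes the C-terminal domain. That section held 40 TCCC and was 44.35% C, whereas the 3 sections of 1478 nt before it held 3, 8 and 3. Another 12 lay in the 5′ UTR of 414 nt and 3 in the 3′ UTR of 413 nt. With 69 in 6740 nt, or 10.2 per kb, Polr2a had the highest density of the 49 mRNAs. Of the 13481 tested mRNAs compared, 99.5% held at least 1 TCCC, 0.69% held as many as Polr2a and 1.91% were as dense. A match of letters is a description and no evidence that a protein binds there.

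Library totals were 38764925 to 46222181 counts in the IP and 46185284 to 52735957 in total RNA. CPM below are read counts scaled to a common library size with TMM factors, and log2 fold changes are IP minus total RNA ± SE from 1 edgeR fit across 16929 genes. A gene is called enriched or depleted where the Benjamini-Hochberg adjusted p of edgeR's quasi-likelihood test was under 0.05. Replicate scatter was larger in the IP, with a biological coefficient of variation of 42.6% against 12.2%. All 8 beta cell markers looked at were detected, at 5366 to 6547 CPM summed in the IP and 20321 to 29645 in total RNA, sums made up mostly of Ins2 and Iapp. Of the 8, 5 were enriched and 3 depleted, with a median log2 fold change of 0.32. Among markers of other islet cells, Gcg was present at 122 to 171 CPM over the 6 libraries. The others listed, Sst, Ppy and Ghrl, reached at most 0.364, 2.61 and 0.413 CPM in any library. The exocrine and duct markers summed to at most 1.03 CPM, with Cpa1 and Ptf1a at 0 reads, and the stromal, endothelial and immune markers to 4.94 to 6.55 CPM in the IP and 1.72 to 2.39 in total RNA. Any part of these other cells in the values below was not tested.

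Most polymerase mRNAs were lower in the IP than in total RNA, and Polr2a was the great exception. All 49 genes passed the filter on low counts. The IP enriched 4 of them, Polr2a, Polr2l, Polm and Polr1a, beside 28.9% of all tested genes, and depleted 34, beside 33.6% of all. In 37 of the 49 members every IP library lay below every total RNA library, beside 39.3% of all tested genes. In 4 of the 49 every IP library lay above, beside 32.2%. Called in either direction were 38 of 49, beside 62.4% of all tested genes. Symbols decide which genes belong, but the family was selected on its IP against total RNA values, known from an earlier analysis of these libraries, so these counts are a description and support nothing. The median log2 fold change was −1.17 over the members and −0.07 over all tested genes. Poln, Polr2h and Polr2k had too few reads in 1 or more IP libraries to pass the filter on the IP group alone, so their place in these counts rests on total RNA. Each value is a share of its library, so more of one mRNA and less of the others cannot be told apart. With library totals in place of TMM factors the all-gene median moved by −0.43 (log2), and 32.1% of all calls were enrichments against 46.3%. The family then had 2 enriched and 42 depleted members, beside 20.4% and 43% of all tested genes. The count of 4 enriched members fell to 2 without IP replicate 1, total RNA replicate 2 or total RNA replicate 3. In those settings 26.4%, 24.1% and 23.9% of all tested genes were enriched.

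**Figure D1:**
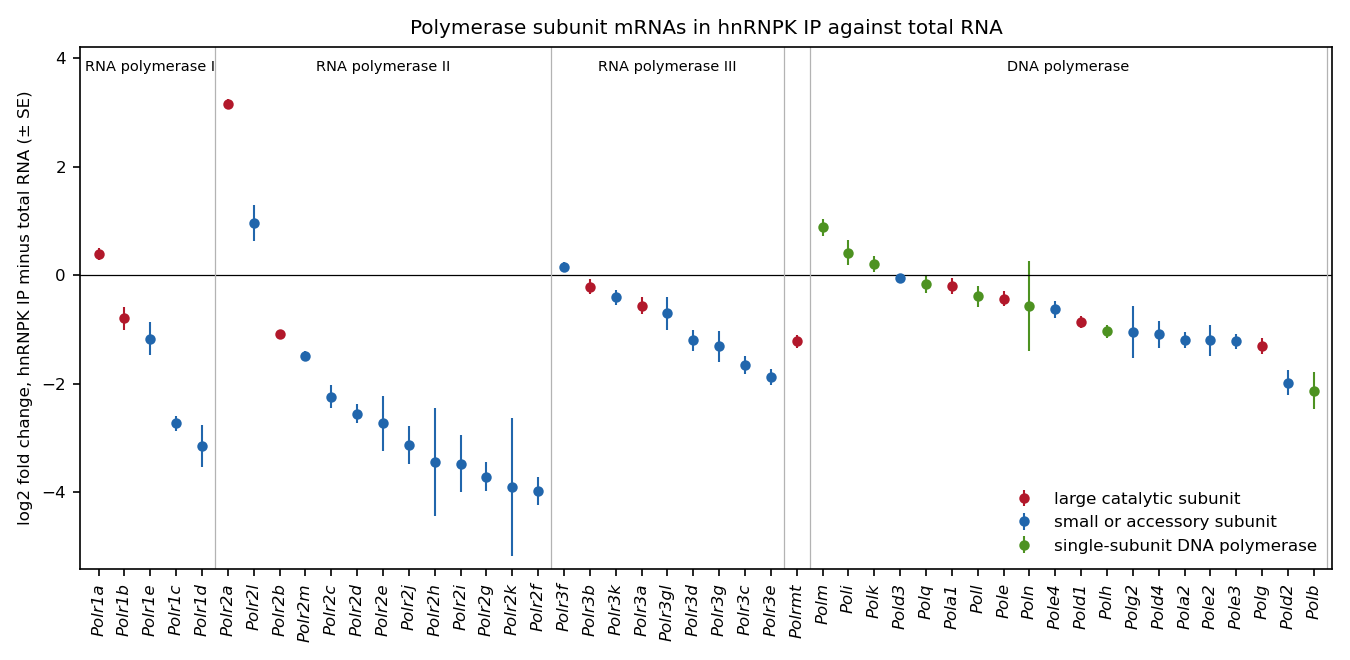
Log2 fold change (hnRNPK IP minus total RNA) of 48 of the 49 polymerase genes, ordered within each enzyme from high to low; bars are ± SE from the fit on 3 libraries a group, and the narrow panel is Polrmt. Polr2a stands at 3.16, above the next highest, Polr2l, at 0.96, and the lowest values, down to −3.97, belong to small RNA polymerase II subunits.

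Among RNA polymerase II genes the largest subunit and all but 1 of the others lay on opposite sides. Polr2a (ENSMUSG00000005198.15, chromosome 11, 69733997 to 69758637, minus strand, GRCm38) had 2017, 2079 and 1876 CPM in IP libraries 1, 2 and 3 and 233, 217 and 220 CPM in total RNA libraries 1, 2 and 3. The groups were far apart and the IP was 8.91-fold higher, a log2 fold change of 3.16 ± 0.08 that ranked 74th from the top of 16929 genes. By CPM Polr2a ranked 561st to 614th of all genes in the total RNA libraries and 42nd to 50th in the IP libraries. It kept its call in all 14 alternatives, with values from 2.72 to 3.22. Its reads were 69.2% to 72.2% of all reads of the 49 genes in the IP libraries and 12% to 13.3% in total RNA. The 48 others together made up 0.0679% to 0.0725% of all counts in the IP and 0.179% to 0.185% in total RNA.

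Polr2b, which encodes the second largest subunit and forms the active centre with the Polr2a product, went the other way. It had 35.7, 35.7 and 35.8 CPM in the IP and 75.9, 75.2 and 77.0 in total RNA, with no overlap and a log2 fold change of −1.09 ± 0.08 (depleted). Per kb of exon, the Polr2a level was 1.88 to 2.03 times that of Polr2b in the total RNA libraries and 34.6 to 38.5 times in the IP libraries.

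Small RNA polymerase II subunits held the lowest values of the family, with 10 of 11 depleted, 1 enriched and a median log2 fold change of −3.13. Of all tested genes, 33.6% were depleted and 28.9% enriched. These subunits have short mRNAs, with a median of 950 nt. Relative to the median of the length decile of each mRNA, their median was −1.08, the same as for the large DNA polymerase subunits. Lowest of these 11 was Polr2f, a subunit common to RNA polymerases I, II and III. It had 1.92, 1.52 and 2.89 CPM in the IP and 28.8, 37.5 and 33.5 in total RNA. Each IP value was under every total RNA value, and total RNA was 15.8-fold higher (log2 fold change −3.97 ± 0.26). Polr2g, which with Polr2d forms the stalk of the enzyme, was at −3.71 ± 0.27, and Polr2d itself at −2.55 ± 0.18. Polr2i and Polr2j were at −3.47 ± 0.52 and −3.13 ± 0.35, and Polr2c, which assembles with the Polr2j product early in the making of the enzyme, at −2.24 ± 0.21. Polr2m, which encodes an associated protein known as Gdown1 and no core subunit, was nearest to 0 of the depleted ones, at −1.48 ± 0.08, and was also the most abundant per length in total RNA. Exon bases shared with a gene on the opposite strand made up 26.8% of Polr2i (with Tbcb), 18.1% of Polr2c (with Dok4) and 15.9% of Polr2j (with Lrwd1). For Polr2f the share was 9.44%. Whether counting used strand is not stated in the labels or notes, so reads of such pairs may be mixed. Polr2a shared no exon base with another gene.

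The 5 subunits common to RNA polymerases I, II and III, which are Polr2e, Polr2f, Polr2h, Polr2k and Polr2l, did not go one way. Polr2e was depleted at −2.73 ± 0.51, with 1.42 CPM in IP library 2 beside 7.68 and 7.06 in the other IP libraries. Polr2h had 0, 10 and 76 reads in the IP libraries against 430 to 473 in total RNA (log2 fold change −3.44 ± 1.00), and was not called when total RNA library 1 (−3.46) or 2 (−3.35) was left out. Polr2k, the shortest mRNA of the family at 489 nt, rests on 14 reads in the IP, all in library 2, against 98 to 140 reads in each total RNA library. The count of 0 in IP libraries 1 and 3 allows up to 3 reads, or 0.0886 and 0.0748 CPM, for counting error only. If both mates of a read pair were counted, which the excess of even counts leaves possible, these reads stand for fewer fragments. The log2 fold change, −3.90 ± 1.27, was no longer called when total RNA library 1, 2 or 3 was left out (−4.03, −3.86 and −3.66) and with the offset for exon length (−2.56), and ranged down to −9.67 over the alternatives.

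Polr2l, the shared subunit that lay on the enriched side, had 10.5, 5.46 and 13.1 CPM in the IP and 4.19, 5.06 and 5.67 in total RNA. IP library 2 lay within the range of total RNA, so the groups overlapped. The log2 fold change was 0.96 ± 0.33, and the call ended without IP replicate 1 (0.90) or 3 (0.63), without total RNA replicate 1 (0.89), 2 (1.01) or 3 (1.10), with library totals alone (0.53) and with the replicate number as a block (0.89). The offset for exon length gave 1.84, and the call held. Its annotated mRNA has a coding sequence of 204 nt and a 3′ UTR of 1436 nt, and that of Polr2k has 177 nt and 231 nt.

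In total RNA the levels of the 13 RNA polymerase II mRNAs per kb of exon spanned 23.0-fold, from 3.01 CPM per kb for Polr2l to 69.1 for Polr2m. In the IP they spanned 1242-fold, from 0.227 for Polr2k to 282 for Polr2a. The lower end rests on the 14 IP reads of Polr2k, all in library 2, so the size of this span is uncertain. Without Polr2a the IP span was 109-fold, with the same lower end. Among all 49 genes 3 were above Polr2a per kb in total RNA (Polr2m, Polr2g and Pold2) and 0 in the IP, where Polr2a was 11.4 times the next RNA polymerase II gene, Polr2m. Exon length is the union of all annotated exons of a gene and can exceed its mRNA, as for Polr2f (2595 against 885 nt). Ranks per kb depend on this choice of length.

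**Figure D2:**
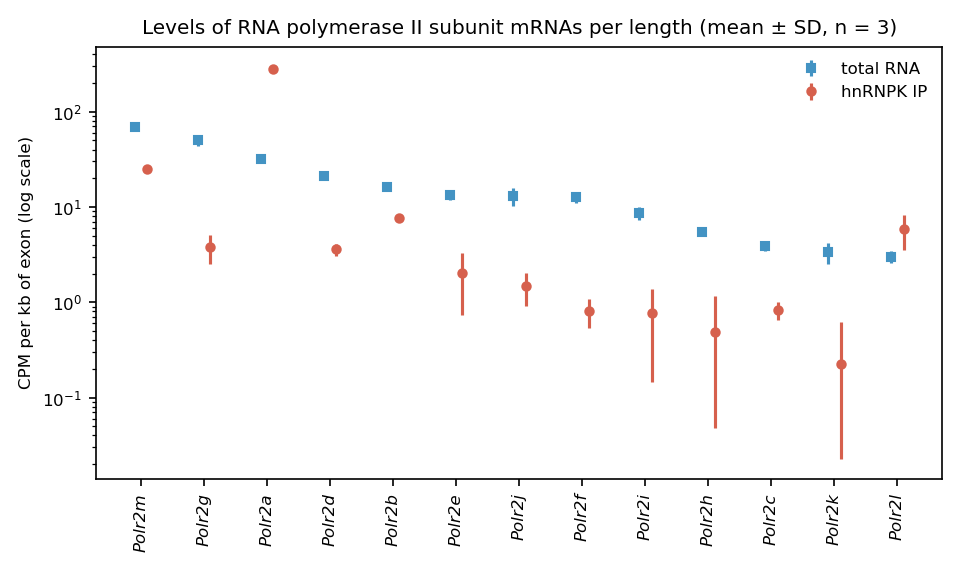
Levels of the 13 RNA polymerase II mRNAs in CPM per kb of exon on a log axis, mean ± SD of 3 libraries, in total RNA (squares) and hnRNPK IP (circles), ordered by total RNA; lower bars that would reach 0 (Polr2h and Polr2k) are drawn short of it. Polr2a is at 31.6 in total RNA and 282 in the IP and Polr2l at 3.01 and 5.86, while the 11 others are lower in the IP.

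Of the RNA polymerase I genes that fit the symbol rule, Polr1a was enriched and the 4 others were depleted. Of all tested genes, 28.9% were enriched and 33.6% depleted. Polr1a, the largest subunit, had 50.2, 54.3 and 48.5 CPM in the IP and 42.9, 37.4 and 36.6 in total RNA. The groups did not overlap, but the log2 fold change was small (0.39 ± 0.11, enriched). Its call ended without IP replicate 1 (0.36) and without total RNA replicate 2 (0.40) or 3 (0.38), and the direction turned to −0.05 for library totals alone and −0.20 for the offset for exon length, but not with DESeq2 factors (0.43). Polr1b, the second largest subunit, had 9.33, 13.6 and 8.15 CPM in the IP and 16.5, 18.5 and 18.7 in total RNA, with no overlap. Its log2 fold change of −0.79 ± 0.21 was called, but not without total RNA replicate 2 (−0.73) or 3 (−0.72). Polr1c and Polr1d encode a pair of subunits common to RNA polymerases I and III and were the lowest of these 5 genes. Polr1d had 2.04, 6.70 and 5.98 CPM in the IP against 39.0, 46.9 and 45.3 in total RNA, a wide gap (log2 fold change −3.15 ± 0.39), and Polr1c was at −2.73 ± 0.14. Polr1e, which encodes a subunit specific to RNA polymerase I, was the highest of the small ones. It had 5.64, 2.52 and 4.86 CPM in the IP and 10.0, 8.96 and 10.3 in total RNA, all IP values lower (log2 fold change −1.17 ± 0.30, depleted).

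RNA polymerase III genes were closer to 0. Polr3a, its largest subunit, had 18.3, 13 and 14.7 CPM in the IP and 20.9, 24.0 and 22.7 in total RNA. The groups did not overlap (log2 fold change −0.56 ± 0.16, depleted), but the call ended without total RNA replicate 2 (−0.47) or 3 (−0.52). Polr3b, the second largest, had 27.5, 23.7 and 20.0 CPM against 27.3, 28.3 and 26.7, which overlapped (log2 fold change −0.21 ± 0.14, not called). Library totals alone gave a call for Polr3b, at −0.64. Of 8 small subunits 6 were depleted, beside 33.6% of all tested genes, and the others not called. The median of the 8 was −1.25.

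Polr3f was the highest of the small RNA polymerase III subunits. It had 41.2, 43.0 and 42.5 CPM in the IP and 39.2, 38.0 and 37.1 in total RNA. Each IP value was slightly above every total RNA value, yet the log2 fold change of 0.15 ± 0.09 was not called, and it turned to −0.29 under library totals alone, where it was called depleted, and to −0.17, not called, under the offset for exon length. Polr3e was the lowest, with 5.49, 5.79 and 5.51 CPM against 19.7, 19.5 and 22.7, evenly low in all 3 IP libraries (log2 fold change −1.88 ± 0.15). With an mRNA of 4194 nt, Polr3e was at −2.02 relative to the median of its length decile among all tested mRNAs. The paralogs Polr3g and Polr3gl, alternative forms of 1 subunit, had values of −1.31 ± 0.28 (depleted) and −0.70 ± 0.30 (not called). Polr3gl was called without IP replicate 1 (−1.07), with limma-voom (−0.76) and with library totals alone (−1.13), and was at 0.22 with the offset for exon length. Polr3k at −0.41 ± 0.13 was depleted, but not when IP library 1 (−0.34) or total RNA library 1 (−0.41), 2 (−0.37) or 3 (−0.35) was left out, nor with the offset for exon length (−0.07). Polr3c and Polr3d were depleted, at −1.65 ± 0.16 and −1.20 ± 0.20.

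Both catalytic enzymes of mitochondria were depleted. Polrmt, the single-chain enzyme that transcribes mitochondrial DNA, had 12.4, 11.8 and 12.6 CPM in the IP and 28.3, 29.5 and 27.8 in total RNA, with tight replicates and no overlap (log2 fold change −1.22 ± 0.12). Polg, the catalytic subunit that replicates mitochondrial DNA, had 18.7, 23.4 and 16.4 CPM against 49.6, 48.2 and 46.0, also without overlap (log2 fold change −1.30 ± 0.15). Exon bases of the opposite-strand gene Fanci overlap 8.57% of those of Polg. The accessory subunit gene Polg2 was at −1.04 ± 0.48 and was not called, although each IP library lay below the total RNA libraries. It was called without IP replicate 3 (−1.84), with limma-voom (−1.18) and with library totals alone (−1.47).

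Among the nuclear replicative DNA polymerases, Pold1 and Pole were depleted and Pola1 was not called. Pola1, the catalytic chain of the polymerase that starts new strands, had 31.2, 38.1 and 31.1 CPM in the IP and 43.3, 37.5 and 34.3 in total RNA. These overlapped, and the log2 fold change of −0.20 ± 0.14 was not called. Library totals alone (−0.63) and the offset for exon length (−0.60) gave a call, and DESeq2 factors (−0.15) did not. Pold1, the catalytic chain of the main lagging-strand enzyme, had 49.4, 39.4 and 45.2 CPM against 85.0, 80.5 and 79.1, well separated (log2 fold change −0.87 ± 0.11, depleted). Pole, its leading-strand counterpart, had 36.5, 47.3 and 35.2 CPM against 57.7, 50.4 and 51.9, with IP library 2 just under the total RNA range. At −0.43 ± 0.14 Pole was depleted, but not when total RNA library 1, 2 or 3 was left out (−0.33, −0.43 and −0.41).

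The accessory subunits of DNA polymerases, Polg2 included, had 6 of 8 depleted, beside 33.6% of all tested genes, and a median of −1.14. Lowest was Pold2, with 15.6, 14.0 and 24.6 CPM in the IP and 60.0, 77.2 and 76.9 in total RNA, a gap of 3.96-fold (log2 fold change −1.98 ± 0.23). Highest was Pold3, with 66.0, 65.4 and 70.7 CPM against 69.5, 68.7 and 72.2, which overlapped (log2 fold change −0.06 ± 0.09). Pold3 was not called, except with library totals alone (−0.49). The remaining subunits of these enzymes, Pola2, Pold4, Pole2, Pole3 and Pole4, were depleted at −1.22 to −0.63. Pole4 was not called when total RNA library 2 (−0.57) or 3 (−0.55) was left out, and the offset for exon length ended the calls of Pold4 (−0.04), Pole2 (−0.78) and Pole4 (−0.10). Pold4 shares 24.6% of its exon bases with another gene on the same strand.

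The 8 single-chain DNA polymerases of repair and damage bypass were spread on both sides of 0, with 1 enriched, 2 depleted and 5 not called, beside 28.9% enriched and 33.6% depleted of all tested genes. Polm, a polymerase of DNA end joining, was the highest, with 20.7, 28.1 and 24.7 CPM in the IP and 12.4, 14.5 and 13.1 in total RNA. All IP values were higher (1.84-fold), and the log2 fold change of 0.88 ± 0.16 kept its call in all 14 alternatives, from 0.44 to 1.11. Polb, the polymerase of base excision repair, was the lowest, with 1.68, 4.49 and 3.37 CPM against 12.2, 14.4 and 15.1. Its groups were apart (log2 fold change −2.13 ± 0.34), and with 1201 nt it is also the shortest mRNA of these 8. Polh, which copies past ultraviolet damage, was depleted at −1.03 ± 0.12. Poll, the close relative of Polm, was at −0.39 ± 0.19 and not called, and it was called without IP replicate 3 (−0.64) and with library totals alone (−0.82), and stood at 0.19 with the offset for exon length. Poli was at 0.41 ± 0.23, called without IP replicate 2 (0.59) and with the offset for exon length (0.54), and at −0.02 with library totals alone. Polk, at 0.21 ± 0.15, was not called, and it stood at −0.22 with library totals alone. Polq, at −0.17 ± 0.16, was not called, although it was with library totals alone (−0.60) and under the offset for exon length (−0.63). Poln was barely expressed, at most 0.828 CPM in any library.

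**Figure D3:**
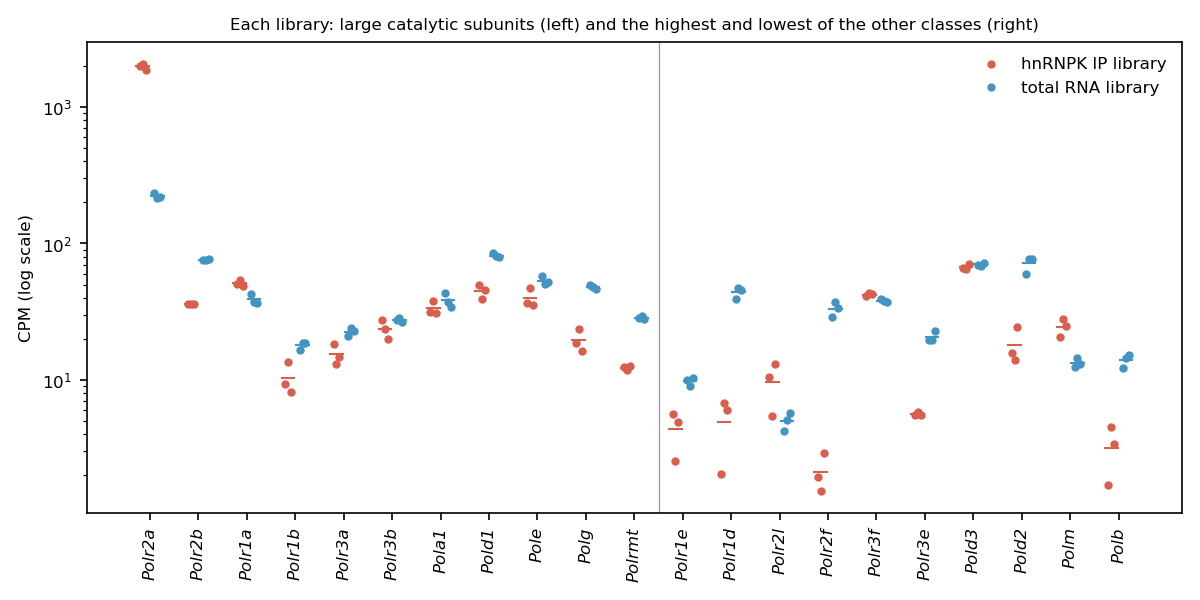
CPM on a log axis in each of the 6 libraries (points; lines are group means) for the 11 large catalytic subunits and, to the right of the line, the highest and lowest gene of each other class. The IP points of Polr2a lie at 1876 to 2079 above 217 to 233 in total RNA, those of Polr2b at 35.7 to 35.8 below 75.2 to 77.0, and the groups of Polr3b, Pola1, Pold3 and Polr2l overlap.

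Set side by side, the large catalytic subunits had a median log2 fold change of −0.56 (11 genes, 2 enriched and 7 depleted) and the small subunits one of −1.54 (30 genes, 1 enriched and 25 depleted), a difference of 0.99. Among all tested genes 28.9% were enriched and 33.6% depleted. Without Polr2a the large subunits had a median of −0.67 and a highest value of 0.39. Median log2 ratios of the large subunits were −0.54, −0.39 and −0.59 in IP libraries 1, 2 and 3, taken against the mean of total RNA, and those of the small subunits −1.56, −1.71 and −1.44. Large and small values did not separate gene by gene, since Polg, Polrmt and Polr2b were lower than the small subunits Pold3, Polr3f and Polr2l. Median mRNA length was 4975 nt for large and 1648 nt for small subunits, and its part in the difference was not tested.

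Over all tested mRNAs the median log2 fold change went from −2.15 in the shortest length decile (up to 1251 nt) to 0.87 in the longest (6573 nt and above). Spearman's rho between log2 fold change and mRNA length was 0.70 over the 49 members and 0.49 over 13481 mRNAs, given as a description across genes that share the same 6 libraries. Against the median of its own length decile, a large subunit lay 0.93 lower in the median and a small one 0.86 lower. By this measure 10 of 11 large and 24 of 30 small subunits lay below mRNAs of their length, and so did 4 of 8 single-chain polymerases. The exception among the large ones was Polr2a, 2.28 above its decile, a distance that Polr2l, at 2.28, also had. With an offset for exon length in the fit, the class medians were −0.89 and −1.29, a difference of 0.40, with 1 of 11 large and 1 of 30 small subunits enriched (31.7% of all genes) and 8 and 20 depleted (32% of all genes). Single-chain polymerases then had 2 enriched and 3 depleted, and Polr2a stood at 2.89.

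**Figure D4:**
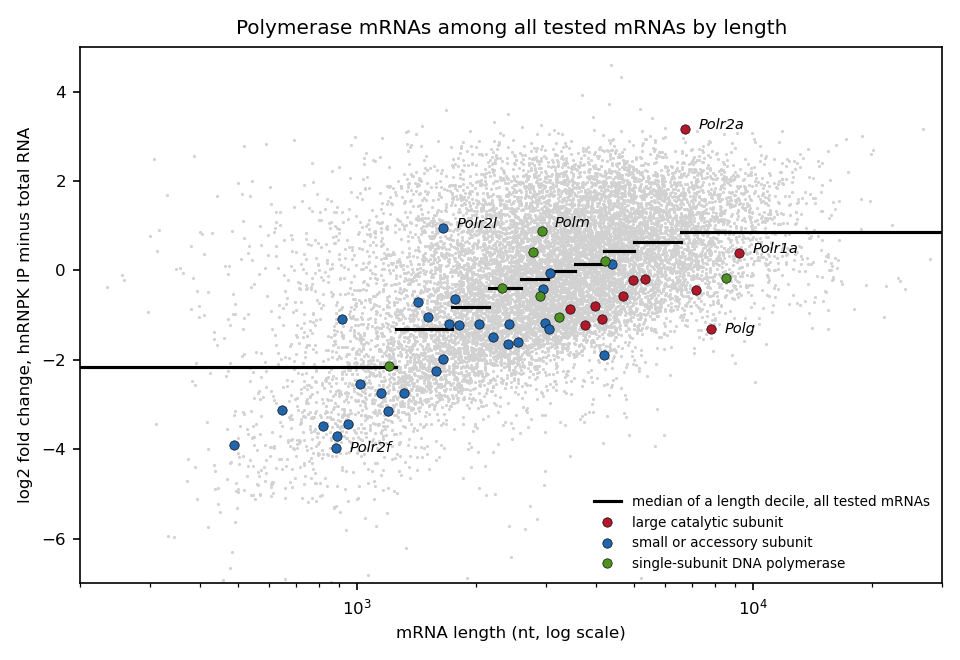
Log2 fold change against mRNA length (log axis) for all tested mRNAs (grey; those outside the axis limits are not drawn), the median of each length decile (black lines), and the 49 polymerase mRNAs by role. The black lines climb from −2.15 to 0.87; 38 polymerase mRNAs lie below the median of their decile and 11 above it, Polr2a and Polr2l the farthest at 2.28.

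The density of TCCC, shown in sequence at the start, was set beside the fold changes. Spearman's rho between TCCC per kb and log2 fold change was 0.14 over the 49 mRNAs, 0.09 without Polr2a and 0.30 over all tested mRNAs. Polm and Polr2l, on the enriched side, had 5.47 and 7.27 per kb, but Poll had 7.75 without a call and Polr2c 6.96 at −2.24. Polr2b, with 1.93 per kb, was among the sparsest. These correlations are across genes, share length and base composition, and are given as a description.

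Polymerase genes that carry other names were looked at beside the family. Of 12 listed, 11 were tested, with 3 enriched and 7 depleted, beside 28.9% and 33.6% of all tested genes, and a median of −1.22. Rev3l, the catalytic chain of DNA polymerase zeta, was highest at 0.95 ± 0.14, with 126, 160 and 110 CPM in the IP and 71.3, 67.6 and 65.5 in total RNA, and was enriched in all 14 alternatives. Tert, the catalytic subunit of telomerase, followed at 0.83 ± 0.18. It lost its call with library totals alone, where it was at 0.40, its lowest value. Znrd1, a small RNA polymerase I subunit, was lowest at −2.91 ± 0.33, and the bypass polymerase Rev1 was at −1.94 ± 0.25, both depleted in every alternative. Twistnb, another RNA polymerase I subunit, was the third enriched gene, at 0.33 ± 0.12, but the call held in 5 of 14 alternatives and ended when IP library 1 or 3 or any 1 total RNA library was left out, and the value went down to −0.10 over the alternatives.

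Partners of the polymerases and factors for their assembly had 2 enriched and 19 depleted of 26, beside 28.9% and 33.6% of all tested genes, with a median of −1.29. Supt5, the large subunit of the elongation factor DSIF that travels with RNA polymerase II, had 385, 362 and 418 CPM in the IP and 138, 144 and 138 in total RNA, far apart (log2 fold change 1.47 ± 0.09). Its small partner Supt4a was the lowest of the list, with 0.236, 0 and 0.773 CPM against 4.05, 4.88 and 5.59 (−3.80 ± 0.90). Both calls held in all 14 alternatives. With 0 CPM in IP library 2, however, Supt4a could not pass the low-count filter on the IP group alone. Its call therefore rests on total RNA and on very few IP reads, and its mRNA is short (706 nt). Bdp1, a subunit of an RNA polymerase III initiation factor, was enriched at 0.70 ± 0.20 but not under library totals alone, nor under the offset for exon length (0.14). Rfc4, a subunit of the clamp loader, was depleted at −2.66 ± 0.26.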

How the data were processed

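The data are 3 libraries of hnRNPK IP RNA and 3 of total RNA, grouped by sample title. The authors' deposited files hold raw read counts per gene. Per the submitters' processing notes, reads were aligned to mm10 with TopHat2 and counted with featureCounts; the sources used here do not give versions, annotation release, strand setting or the handling of multiple alignments and read pairs. Of 53379 gene IDs, 53274 matched GENCODE M21 (GRCm38), which supplied symbols, coordinates and mRNAs (best APPRIS level, then longest coding sequence); those of the other 105 took up to 0.0237% of the counts in a library. Among counts of 1 to 20, 58.6% to 68.7% were even, so both mates of a read pair may have been counted, and a printed read count may then exceed the number of fragments.

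Counts were tested with edgeR 4.0.16 in R 4.3.3 (TMM, filterByExpr with minimum count 10 and total 15, quasi-likelihood F test, Benjamini-Hochberg over all genes, threshold 0.05); SE is the fold change over the root of F. On simulated counts with the same design, 61.9% of 2-fold and 79.4% of 4-fold changes were recovered. The simulation gave both groups the same scatter and changed few genes, unlike these data, so those shares need not hold here. Alternatives were DESeq2 1.42.0, limma-voom 3.58.1, other scaling, no filter, halved counts, an offset for exon length, a replicate block and leaving out each library. Same-numbered libraries did not deviate together (r of 0.000874, −0.0709 and 0.12). No 2 libraries of a group agreed within sampling noise (chi-square over degrees of freedom 6.4 to 123). Members and lists were chosen with earlier results of these data known. Members may be named, except 1 that is counted in the totals but not reported here by itself; values per library are given for the large catalytic subunits and the highest and lowest of each other class, and from the lists the 2 highest and 2 lowest; Twistnb, Bdp1 and the marker genes were named after their values were seen.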

Additional observations from a re-analysis of the deposited data

How the results depend on the processing

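Of the 49 genes, 28 kept direction and side of the threshold in all 14 alternatives. With DESeq2, DESeq2 factors in edgeR, halved counts or no low-count filter, all 49 did. Library totals alone left 2 enriched members, beside 20.4% of all tested genes. This setting gave medians of −0.99 (large), −1.97 (small), −0.71 (single-chain) and −1.11 (large without Polr2a). It turned Poli (−0.02), Polk (−0.22), Polr1a (−0.05) and Polr3f (−0.29). The offset for exon length gave medians of −0.89, −1.29 and −0.91 (large, small, large without Polr2a), a large minus small difference of 0.40, and turned Poll (0.19), Polr1a (−0.20), Polr3f (−0.17) and Polr3gl (0.22). The cause was not tested beyond what each setting changes. Leaving out 1 library gave 2 to 5 enriched and 27 to 36 depleted members, beside 23.9% to 29.3% and 26.5% to 35.1% of all tested genes. The medians were −0.73 to −0.47 (large), −1.75 to −1.48 (small), −0.37 to −0.19 (single-chain) and −0.75 to −0.60 (large without Polr2a). Large minus small differences were 0.82 to 1.17. No label says whether the replicate numbers pair the libraries, and the weak correlations of same-numbered libraries cannot settle it. With the replicate block, 3 members were enriched and 34 depleted, beside 25.9% and 31.7% of all tested genes. Polr2l (0.89) lost its call. Low IP counts limit Polr2h, Polr2k and Poln.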
